A study of Mus musculus with 12 samples.

Results

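Dazl, Ddx4, Mael, Hormad1, Sycp1, Sycp3, Stk31 and Slc25a31 are 8 germline genes whose promoters are known to be methylated in somatic tissues, and they are 8 of 25747 autosomal genes with an annotated start. They were listed by name, and each was read in the 1 kb bins that overlap its mm10 gene body with 5 kb on each side. These windows hold 445 of 2462755 autosomal bins. The study sequenced chromatin of mouse embryonic stem cells immunoprecipitated for GZF1, a DNA-binding zinc-finger protein, after it had been fixed with formaldehyde and cut with micrococcal nuclease. Of 12 libraries, 8 were analysed. The Cas9-GFP line, called Cas9 here, gave 1 library of Gzf1-Flag overexpression (clone 35, anti-FLAG), 1 of wild type (anti-GZF1), 1 of wild type for the active histone mark H3K27ac, 1 of the Gzf1 knockout (anti-GZF1), 1 of a control (anti-GZF1) and 1 input. The RGM line, a 129xCAST hybrid, gave 1 library of Gzf1-Flag overexpression (clone 56, anti-FLAG) and 1 of wild type (anti-GZF1). Gzf1-Flag was expressed ectopically and each tagged line was 1 clone. Anti-FLAG chromatin from cells that lack the tag was not analysed here, and the labels do not say how the Cas9 control differs from the Cas9 wild type. With 1 library for each line, genotype and antibody there are no replicates, so no test between libraries was possible. Intervals given are 95% intervals for counting error only, since sequenced reads are not independent molecules.

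Germline genes of this kind are kept silent outside the germ line by DNA methylation of CpG-rich promoters and by a repressor complex that contains PCGF6, E2F6 and the MGA-MAX pair. MGA and MAX recognise the E-box CACGTG, and E2F6 recognises E2F sites. Demethylation of such promoters accompanies the onset of germ cell development, when RNA-binding and meiotic proteins are first needed. The series' title places GZF1 and ZFP57, a zinc-finger protein that binds a methylated hexamer, in methylation-dependent binding at an imprinted domain. Methylation itself was not measured in the libraries analysed here, so the methylated state of these promoters in these cells was not checked.

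Depth ran from 10.1 M reads in the input and 21.8 M in RGM wild type to 85.9 M in the knockout and 94.2 M in the control (M, 10 to the power of 6), and a bin averaged 3.93 to 35.8 reads. The knockout and the control stood apart from the other Cas9 libraries in chromosome coverage. Density, the reads of a bin over the library's own autosomal mean, had a chromosome X median of 0.820 in the knockout and 0.964 in the control, against 0.509 to 0.640 in the other 4 Cas9 libraries. Chromosome 17, which carries Dazl, was at 0.841 in the knockout and 0.839 in the control, against 1.02 to 1.06 in those 4. Over the 14 bins of the targeted gene Gzf1 the density was 0.688 in the knockout and 0.903 in the control, and no bin was empty in the knockout (lowest density 0.243), but chromatin reads do not measure the protein, so they do not check that label. H3K27ac at the gene start exceeded 1.5 times its surroundings at 4 of 7 matched embryonic stem cell markers (median 1.61) and 1 of 4 fibroblast feeder markers (median 1.35), a small margin between the lists. Of all gene starts 47.9% were called (median 1.45), so these counts say little about the cell type.

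Most of the promoters share sequence features. The genes were listed by name and not by sequence. Genes of this kind are known for CpG-rich promoters and for a repressor that recognises E-boxes and E2F sites. The counts of CpG, E-boxes and E2F cores are therefore not independent of the choice of genes. Windows of 300 bases, 250 before and 50 after the annotated start, came from RefSeq (GRCm38.p6, the C57BL/6J reference, not the RGM alleles), and all 8 genes matched. They held 15 (Sycp3) to 38 (Ddx4) CpG, against a median of 14.0 in 16456 protein-coding promoters, of which 48.8% have at least 15. The 5 shown are Dazl, which had the largest anti-GZF1 fold, Ddx4, the largest anti-FLAG fold in Cas9, Sycp1, the smallest folds, Sycp3, the fewest CpG, and Stk31, the only one called above its surroundings in the knockout. Capitals mark the E-box CACGTG, the E2F core GCGGGA, the ZFP57 hexamer TGCCGC and TGCGCG, the first 6 letters of the published GZF1 consensus, each on either strand.
Dazl: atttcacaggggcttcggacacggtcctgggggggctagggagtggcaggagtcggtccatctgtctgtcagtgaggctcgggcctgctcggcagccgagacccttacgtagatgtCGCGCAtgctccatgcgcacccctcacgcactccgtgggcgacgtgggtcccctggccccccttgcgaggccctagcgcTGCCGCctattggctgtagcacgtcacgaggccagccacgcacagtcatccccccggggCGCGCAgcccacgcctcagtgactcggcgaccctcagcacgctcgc
Ddx4: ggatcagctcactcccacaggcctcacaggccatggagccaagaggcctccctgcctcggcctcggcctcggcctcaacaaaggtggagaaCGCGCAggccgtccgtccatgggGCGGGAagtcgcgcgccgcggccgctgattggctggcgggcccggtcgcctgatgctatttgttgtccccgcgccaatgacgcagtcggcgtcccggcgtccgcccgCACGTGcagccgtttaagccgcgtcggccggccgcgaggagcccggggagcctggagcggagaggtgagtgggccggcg
Sycp1: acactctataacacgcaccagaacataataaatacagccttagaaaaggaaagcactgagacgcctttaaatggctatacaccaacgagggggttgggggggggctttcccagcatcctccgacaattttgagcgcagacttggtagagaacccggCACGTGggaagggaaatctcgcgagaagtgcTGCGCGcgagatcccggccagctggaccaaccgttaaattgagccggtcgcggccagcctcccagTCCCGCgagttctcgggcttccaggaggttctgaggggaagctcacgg
Sycp3: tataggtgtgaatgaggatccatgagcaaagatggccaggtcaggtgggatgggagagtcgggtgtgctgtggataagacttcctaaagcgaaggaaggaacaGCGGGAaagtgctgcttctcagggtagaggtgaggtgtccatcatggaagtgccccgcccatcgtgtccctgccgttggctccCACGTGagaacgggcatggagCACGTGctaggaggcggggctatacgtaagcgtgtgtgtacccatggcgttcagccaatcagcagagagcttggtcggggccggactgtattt
Stk31: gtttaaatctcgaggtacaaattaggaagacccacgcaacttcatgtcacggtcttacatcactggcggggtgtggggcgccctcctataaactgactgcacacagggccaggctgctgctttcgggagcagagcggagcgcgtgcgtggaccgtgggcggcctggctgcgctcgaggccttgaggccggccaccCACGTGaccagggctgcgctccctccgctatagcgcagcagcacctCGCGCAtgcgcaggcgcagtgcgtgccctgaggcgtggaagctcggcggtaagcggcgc
The windows are chr17:50293571-50293870 (minus strand) for Dazl, chr13:112652261-112652560 (minus) for Ddx4, chr3:102936051-102936350 (minus) for Sycp1, chr10:88459337-88459636 (plus) for Sycp3 and chr6:49395289-49395588 (plus) for Stk31. All are written in the direction of transcription.

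An E-box lay in 7 of the 8 promoters, all but Dazl, and Hormad1 and Sycp3 had 2 each. It occurs in 7.23% of all promoters, 7.96% of protein-coding ones and 11.7% of protein-coding ones with at least 15 CpG. Most E-boxes of these genes began 20 to 94 bases before the start, at -29 in Ddx4, -57 and -20 in Hormad1, -94 in Sycp1, -64 and -43 in Sycp3, -55 in Stk31 and -93 in Slc25a31, while that of Mael began at -223. The E2F core lay in 6 of 8, all but Dazl and Stk31, against 20.3% of all promoters and 45.4% of the CpG-rich ones. The TGCGCG letters lay in 5 of 8 (Dazl, Ddx4, Mael, Sycp1 and Stk31), against 12.9% and 32.4%. The ZFP57 hexamer lay in Dazl alone, at -55, against 11.6% and 24.2%. A match to letters is a description and does not show that the factor binds there.

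**Figure D1:**
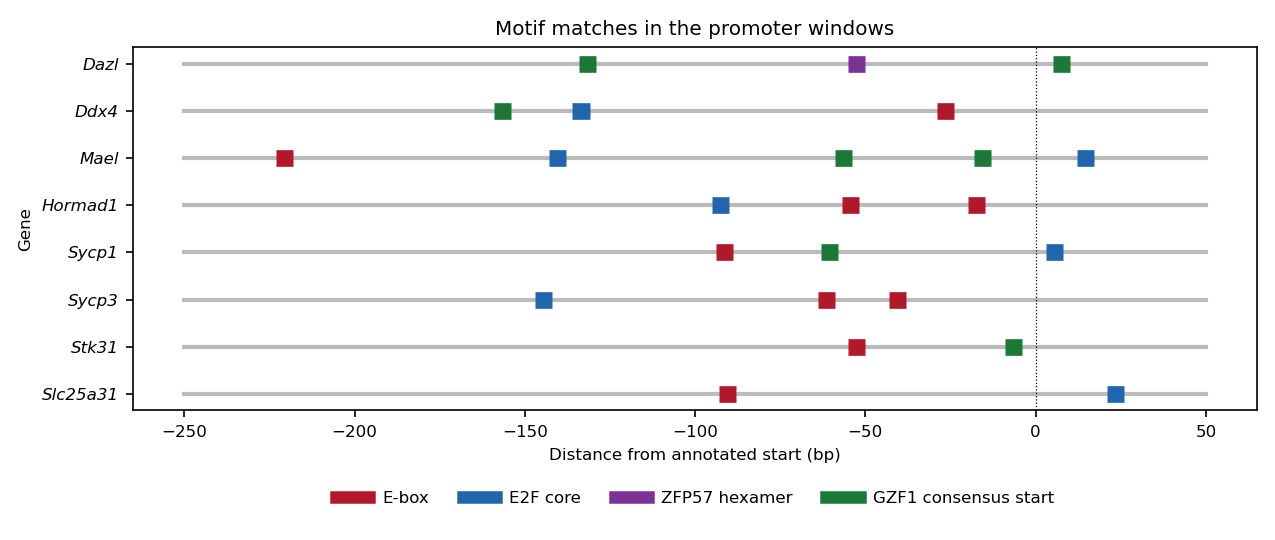
Motif matches in the promoter windows of the 8 genes (rows), by distance of the match from the annotated start in bases (x axis). E-boxes lie in every row but Dazl, most of them between -94 and -20, and Dazl alone holds the ZFP57 hexamer.

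Read density in the bin that holds the annotated start was higher than in the surrounding bins at most of the 8 genes in both anti-FLAG and both wild-type anti-GZF1 libraries, and at few or none in the knockout and the control. The 2 anti-FLAG and 2 wild-type anti-GZF1 libraries are called the 4 GZF1 libraries for short. The Cas9 control was also taken with anti-GZF1 and is not labelled as lacking Gzf1. The name therefore does not divide libraries with GZF1 from those without. Local background is the median of the 10 bins on each side, and a start was called at 1.5 times that background or more. Anti-FLAG called 6 of 8 in Cas9, all but Sycp1 and Slc25a31, and 7 of 8 in RGM, all but Sycp1. All gene starts were called at 42.5% in the Cas9 and 49.4% in the RGM library. Averaging the start bin with its neighbours gave 3 of 8 in Cas9 anti-FLAG, against 25.4% of all starts. A call at 2 times background gave 3 of 8 in Cas9 anti-FLAG, against 19.1%, 4 of 8 in Cas9 wild type, against 32.8%, and 0 of 8 in the knockout, against 7.21%. Over starts with an input of 0.25 to 3 times its mean, which keep 5 of the 8, the calls were 3 in Cas9 anti-FLAG (34.9% of all such starts), 4 in RGM anti-FLAG (41.7%), 5 in Cas9 wild type (42.4%), 5 in RGM wild type (53.0%) and 4 for H3K27ac (40.5%). Wild-type anti-GZF1 called 8 of 8 in both lines, against 50% of all starts in Cas9 wild type and 59.4% in RGM. With the same antibody the knockout called Stk31 alone (1 of 8, against 27.7% of all starts) and the control called 0 of 8 (against 28.1%). The input, the shallowest library, called 4 of 8 (Dazl, Ddx4, Hormad1 and Stk31), against 47.3%. The median fold of the 8 was 1.79 in Cas9 anti-FLAG, 2.36 in RGM anti-FLAG, 2.10 in Cas9 wild type, 2.90 in RGM wild type, 1.07 in the knockout and 1.01 in the control, with 1.38 in the input. The medians of all gene starts were 1.37, 1.49, 1.5, 1.82, 1.21, 1.22 and 1.40 in the same order. At each of the 8 starts the lowest fold of the 4 GZF1 libraries was above the folds of the knockout and the control (8 of 8, against 32.1% of all gene starts and 60.2% of protein-coding ones with at least 15 CpG). This grouping of libraries was not planned, and it sets the control beside the knockout by their values and not by their labels.

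**Figure D2:**
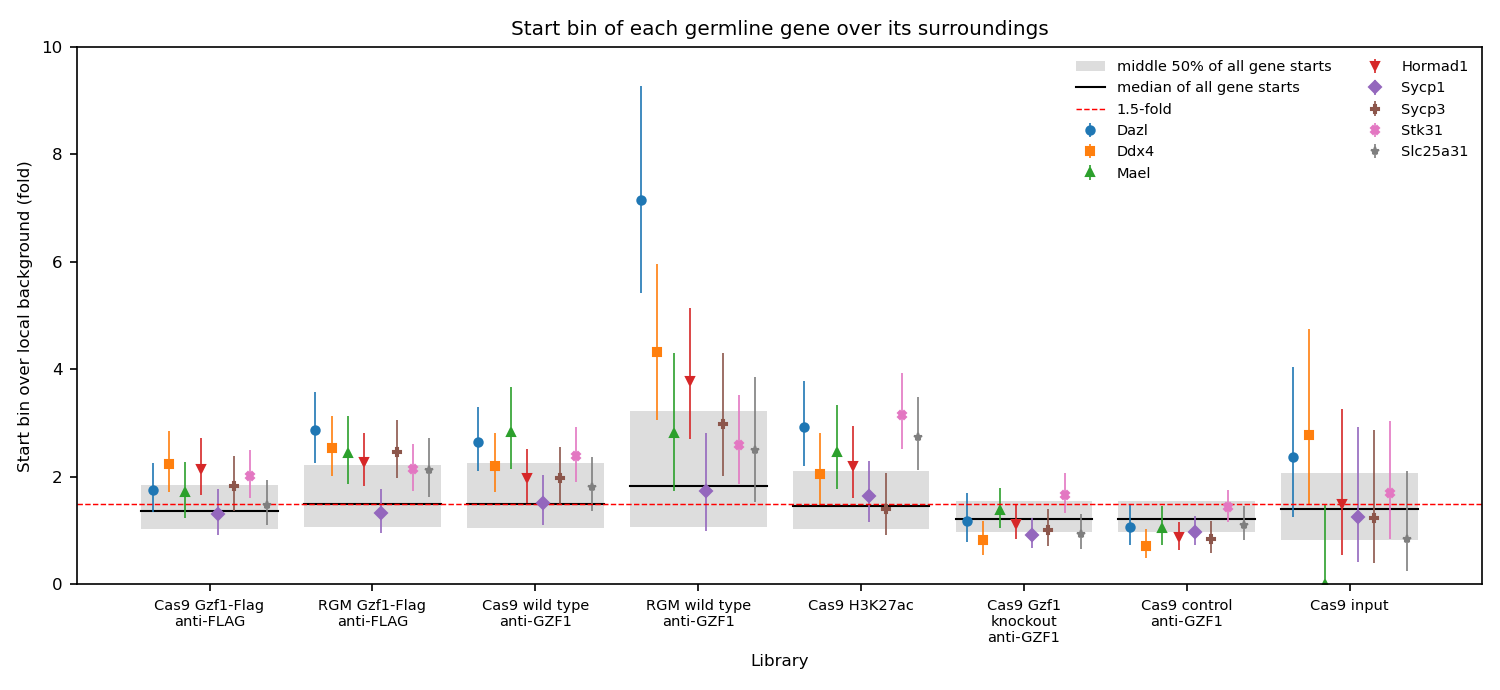
Fold of the start bin over local background (y axis) for each of the 8 genes in each library (x axis), with 95% exact Poisson intervals that treat the background as fixed, and grey boxes for the middle 50% of all gene starts. Dazl in RGM wild type stands highest at 7.16, and the symbols of the knockout and control lie lower, with medians of 1.07 and 1.01.

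Among the genes for RNA-binding and small-RNA proteins, Dazl encodes an RNA-binding protein that promotes translation in germ cells. Its start bin (chromosome 17, 50293001 to 50294000) held 62.1 reads in Cas9 anti-FLAG, 77.2 in RGM anti-FLAG, 80.15 in Cas9 wild type, 57.25 in RGM wild type, 29.4 in the knockout and 35.0 in the control, with 13.0 in the input. Raw reads follow depth, and as densities these were 2.28, 2.92, 3.40, 6.65, 0.893, 0.979 and 3.31 in that order, so the 4 GZF1 libraries and the input were high, and the knockout and control were below their genome average. The fold over local background was 7.16 (5.42 to 9.27) in RGM wild type, where 1.69% of gene starts were higher, and 2.65 (2.10 to 3.30) in Cas9 wild type. It was 1.75 (1.35 to 2.25) in Cas9 anti-FLAG and 2.87 (2.26 to 3.58) in RGM anti-FLAG, against 1.18 (0.795 to 1.69) in the knockout and 1.06 (0.737 to 1.47) in the control. The input, with few reads, had a fold of 2.36 (1.26 to 4.04) at the same start. The next bin downstream was also high, at a density of 4.73 in RGM wild type and 3.22 in Cas9 wild type. In Cas9 anti-FLAG that bin, at 2.72, was the highest of the window. It was the highest of the window in the control too, at 1.72, and stood at 1.12 in the knockout and 2.29 in the input. In the knockout the highest bin of the window was the one just upstream of the start bin, at 1.64.

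Ddx4 encodes the VASA RNA helicase of germ granules. Its start bin (chromosome 13, 112652001 to 112653000) held 63.0 reads in Cas9 anti-FLAG, 85.0 in RGM anti-FLAG, 65.3 in Cas9 wild type, 36.8 in RGM wild type, 29.9 in the knockout and 30.6 in the control, with 13.0 in the input. The densities were 2.32, 3.21, 2.77, 4.27, 0.908, 0.856 and 3.31, with the same split as at Dazl. The fold was 2.23 (1.71 to 2.85) and 2.53 (2.02 to 3.13) with anti-FLAG in Cas9 and RGM, and 2.21 (1.71 to 2.82) and 4.33 (3.05 to 5.97) with wild-type anti-GZF1. In the knockout it was 0.821 (0.554 to 1.17) and in the control 0.718 (0.487 to 1.02), the lowest of the 8 in both. The input had 2.78 (1.48 to 4.76). A second rise 8 kb upstream of Ddx4 fell in the bin that holds the start of the neighbouring gene Slc38a9, an amino acid transporter gene, with a fold of 1.84 to 3.97 in the 4 GZF1 libraries, 1.82 in the knockout and 1.30 in the control, with 3.13 in the input.

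Mael encodes Maelstrom, which acts in the piRNA pathway against transposons. Its start bin (chromosome 1, 166238001 to 166239000) held 45.0 reads in Cas9 anti-FLAG, 59.15 in RGM anti-FLAG, 56.0 in Cas9 wild type, 21.1 in RGM wild type, 56.1 in the knockout and 34.05 in the control, with 0.0 in the input. A count of 0 in the input, taken to allow up to 3 reads, allows a density of up to 0.764, and the two-sided exact interval plotted for the folds reaches a density of 0.940. The densities of the anti-FLAG, wild-type, knockout and control libraries ran 1.65, 2.23, 2.37, 2.45, 1.70 and 0.952 in that order, so the knockout was level with Cas9 anti-FLAG and the control was lowest. The fold was 1.71 (1.24 to 2.28) and 2.44 (1.86 to 3.14) with anti-FLAG, 2.83 (2.14 to 3.67) and 2.81 (1.74 to 4.30) in the wild types, 1.39 (1.05 to 1.80) in the knockout and 1.04 (0.722 to 1.46) in the control.

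Of the meiotic chromosome genes, Hormad1 encodes a HORMA-domain protein of the unsynapsed chromosome axis. The bin of its start (chromosome 3, 95559001 to 95560000) held 67.65 reads in Cas9 anti-FLAG, 84.6 in RGM anti-FLAG, 64.85 in Cas9 wild type, 40 in RGM wild type, 54.65 in the knockout and 47.5 in the control, with 6.0 in the input. It was the highest bin of the window in all 4 GZF1 libraries. The fold was 2.14 (1.66 to 2.72) and 2.27 (1.82 to 2.81) with anti-FLAG, 1.97 (1.52 to 2.52) and 3.78 (2.70 to 5.15) in the wild types, 1.13 (0.848 to 1.47) in the knockout and 0.872 (0.642 to 1.16) in the control. By density it ranked 8 of the 39 bins in the knockout and 35 in the control.

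Sycp3 encodes a lateral element protein of the synaptonemal complex, the structure that joins paired chromosomes. Its start lay in a bin (chromosome 10, 88459001 to 88460000) that held 53.25 reads in Cas9 anti-FLAG, 82.85 in RGM anti-FLAG, 57.95 in Cas9 wild type, 29.05 in RGM wild type, 35.25 in the knockout and 33.1 in the control, with 5.0 in the input. The fold was 1.83 (1.37 to 2.39) and 2.47 (1.97 to 3.06) with anti-FLAG, 1.98 (1.5 to 2.56) and 2.99 (2.01 to 4.30) in the wild types, 1.01 (0.707 to 1.41) in the knockout and 0.841 (0.579 to 1.18) in the control. In RGM wild type the next bin downstream was higher still, at a density of 4.99 against 3.37 in the start bin. That bin was also the highest of the window in Cas9 anti-FLAG, at 2.25, and in the knockout, at 1.97.

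Sycp1 encodes the transverse filament protein of the same complex and had the weakest start of the 8 in every GZF1 library. Its start bin (chromosome 3, 102936001 to 102937000) held 39.05 reads in Cas9 anti-FLAG, 42.1 in RGM anti-FLAG, 43.65 in Cas9 wild type, 16.0 in RGM wild type, 43.05 in the knockout and 53.5 in the control, with 5.0 in the input. The fold was 1.30 (0.922 to 1.77) and 1.32 (0.951 to 1.78) with anti-FLAG, 1.51 (1.10 to 2.03) and 1.73 (0.991 to 2.82) in the wild types, 0.921 (0.667 to 1.24) in the knockout and 0.974 (0.731 to 1.27) in the control. The annotated start, base 102936100, lies near the downstream edge of that bin. The next bin downstream had densities of 1.58 in Cas9 anti-FLAG, 2.85 in RGM anti-FLAG, 2.65 in Cas9 wild type, 2.44 in RGM wild type, 1.76 in the knockout and 1.22 in the control, above the start bin in all of these but the control.

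Stk31 encodes a kinase-like protein of germ cells with a Tudor domain, and its start bin had a fold above 1 in every library. The start bin (chromosome 6, 49395001 to 49396000) held 83.2 reads in Cas9 anti-FLAG, 97.9 in RGM anti-FLAG, 86.4 in Cas9 wild type, 40.7 in RGM wild type, 80.3 in the knockout and 88.65 in the control, with 11 in the input. It was the highest bin of the gene window in all 4 GZF1 libraries, H3K27ac, the knockout and the control. The fold was 2.01 (1.60 to 2.49) and 2.14 (1.74 to 2.61) with anti-FLAG and 2.38 (1.90 to 2.93) and 2.60 (1.86 to 3.53) in the wild types. The knockout had 1.67 (1.33 to 2.08) and the control 1.43 (1.15 to 1.76), which is short of the call. The input had 1.69 (0.845 to 3.03), with an interval that includes 1.

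Slc25a31 encodes the testis adenine nucleotide carrier of mitochondria. Its start bin (chromosome 3, 40708001 to 40709000) held 51.55 reads in Cas9 anti-FLAG, 61.0 in RGM anti-FLAG, 54.9 in Cas9 wild type, 20 in RGM wild type, 35.0 in the knockout and 49.7 in the control, with 4.2 in the input. The fold was 1.48 (1.10 to 1.94), just short of the call, and 2.12 (1.62 to 2.72) with anti-FLAG, 1.81 (1.37 to 2.36) and 2.5 (1.53 to 3.86) in the wild types, 0.936 (0.652 to 1.30) in the knockout and 1.11 (0.820 to 1.46) in the control. The fold was larger in RGM than in Cas9 with either antibody, with intervals that overlap. With anti-GZF1 the start densities were level, at 2.33 in Cas9 and 2.32 in RGM, over local backgrounds of 1.28 and 0.929. With anti-FLAG they were 1.90 and 2.30, over 1.28 and 1.09.

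**Figure D3:**
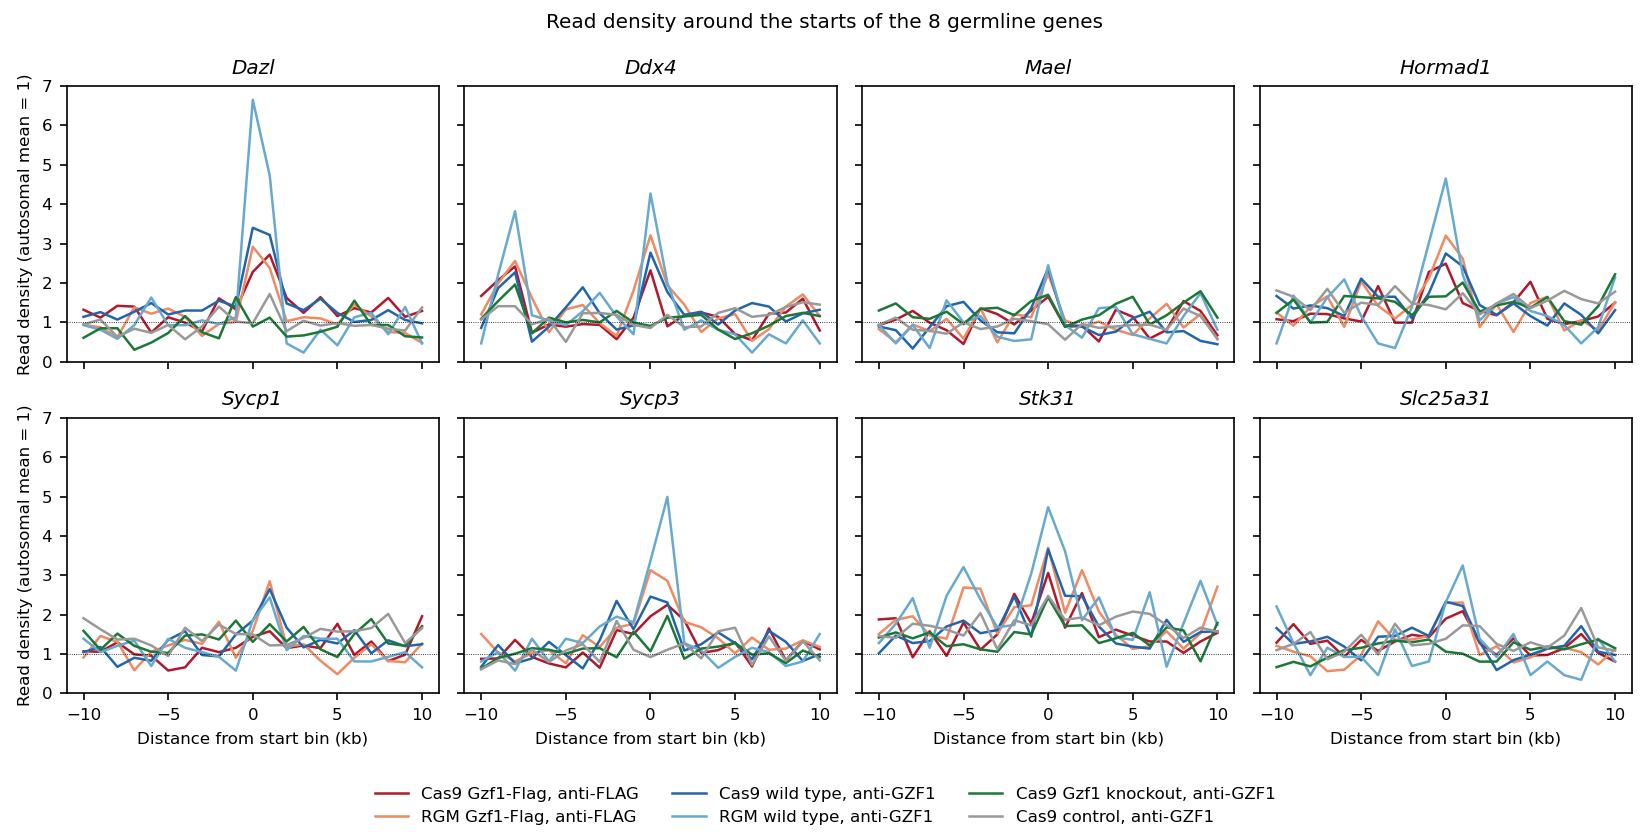
Read density relative to the autosomal mean (y axis) in 1 kb bins from 10 kb upstream to 10 kb downstream of the start bin (x axis) of each gene, with 1 line for each of 6 libraries. By the median of the 8 genes the rise is 1 to 2 bins wide in the tagged and wild-type libraries. It can be wider at a single gene, with densities of up to 2.53 and 2.55 in the bins 2 kb upstream and downstream in Cas9 anti-FLAG. In the knockout the median density was 1.56 in the bin just upstream, 1.19 in the start bin and 1.42 in the bin just downstream. In the control it was 1.19, 1.15 and 1.47, so in both the start bin was lower than the bins beside it. The highest peak is 6.65 at Dazl in RGM wild type, and Ddx4 shows a second rise 8 kb upstream at Slc38a9.

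The rise did not extend over the genes. Over the whole gene windows the log2 value over input, with a pseudocount of 0.5 autosomal means, had a median of -0.03 in Cas9 anti-FLAG, 0.03 in RGM anti-FLAG, 0.02 in Cas9 wild type, -0.04 in RGM wild type, 0.03 for H3K27ac, -0.03 in the knockout and 0.09 in the control. In each of these 7 libraries 0 of 8 windows reached 1.5 times input, where 0.218%, 2%, 0.175%, 4.17%, 0.175%, 4.16% and 4.12% of all gene windows did. The widest range was that of the knockout, with Slc25a31 at -0.40 and Mael at 0.37. Of the 445 bins, 1 with an input of 0.25 to 3 times its mean reached a log2 value of 2, in the Stk31 window in RGM wild type (0.183% of all such bins did in that library).

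At the start bins themselves the ratio to input was read against few input reads, with 0.0 reads at Mael and 13.0 at each of Dazl and Ddx4. The median log2 value over input was 0.30 in Cas9 anti-FLAG, 0.59 in RGM anti-FLAG, 0.54 in Cas9 wild type, 0.88 in RGM wild type, 0.68 for H3K27ac, -0.09 in the knockout and -0.15 in the control. At 1.5 times input or more were 2, 4, 4, 6, 5, 1 and 1 of the 8 in that order, against 21.4%, 30%, 29.8%, 44.5%, 27.2%, 18.4% and 18.4% of all gene starts. Mael, at 1.54 to 2.65 on this log2 scale in all 7, was the only gene called in the knockout and control. Dazl was at -0.45 in Cas9 anti-FLAG, -0.16 in RGM anti-FLAG and 0.03 in Cas9 wild type, and Ddx4 at -0.44, -0.04 and -0.22 in the same libraries, so the rise of these starts over the surrounding bins was little or no rise over input there. In RGM wild type Dazl was at 0.91 and Ddx4 at 0.32.

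The 8 starts were then read against protein-coding starts that are also rich in CpG, with at least 15 in the promoter window. In the tagged and wild-type libraries the shares called were near those of that class. The counts of 6 and 7 of 8 with anti-FLAG stood against 82.5% of the class in Cas9 and 92.1% in RGM, and the 8 of 8 in the wild types against 93.0% for Cas9 and 96.6% for RGM. The class median fold was 1.91, 2.36, 2.41 and 3.57 in those 4 libraries, against 1.79, 2.36, 2.10 and 2.90 for the 8 genes. Dazl in RGM wild type was high in the class too, with 4.14% of it higher, while Sycp1 had 92.1% to 96.2% of the class above it. In the knockout 53.4% of the class was called, with a median of 1.54, and in the control 55.8%, with a median of 1.56. There the 8 genes had 1 and 0 calls. All but Stk31 lay below the class median in the knockout, with 63.6% (Mael) to 96.5% (Ddx4) of the class higher, and all 8 lay below it in the control, with 62.3% (Stk31) to 98.8% (Ddx4) higher. In the input 69.2% of the class was called, against 4 of 8 here.

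Dazl, Ddx4, Mael, Hormad1 and Sycp3 were called in all 4 GZF1 libraries and in neither the knockout nor the control, and Stk31 was called in the 4 and also in the knockout. This combination, chosen after the values were seen, held for 5 of 8, against 9.59% of all gene starts and 20.8% of the CpG-rich class. The first condition alone held for 6 of 8, against 34.3% of all starts and 77.3% of the class. Both conditions read the start bin only and leave out the bins beside it. At Sycp3 the highest bin of the window in the knockout was the next one downstream. At Dazl the highest bins in the knockout and the control also lay beside the start bin.

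**Figure D4:**
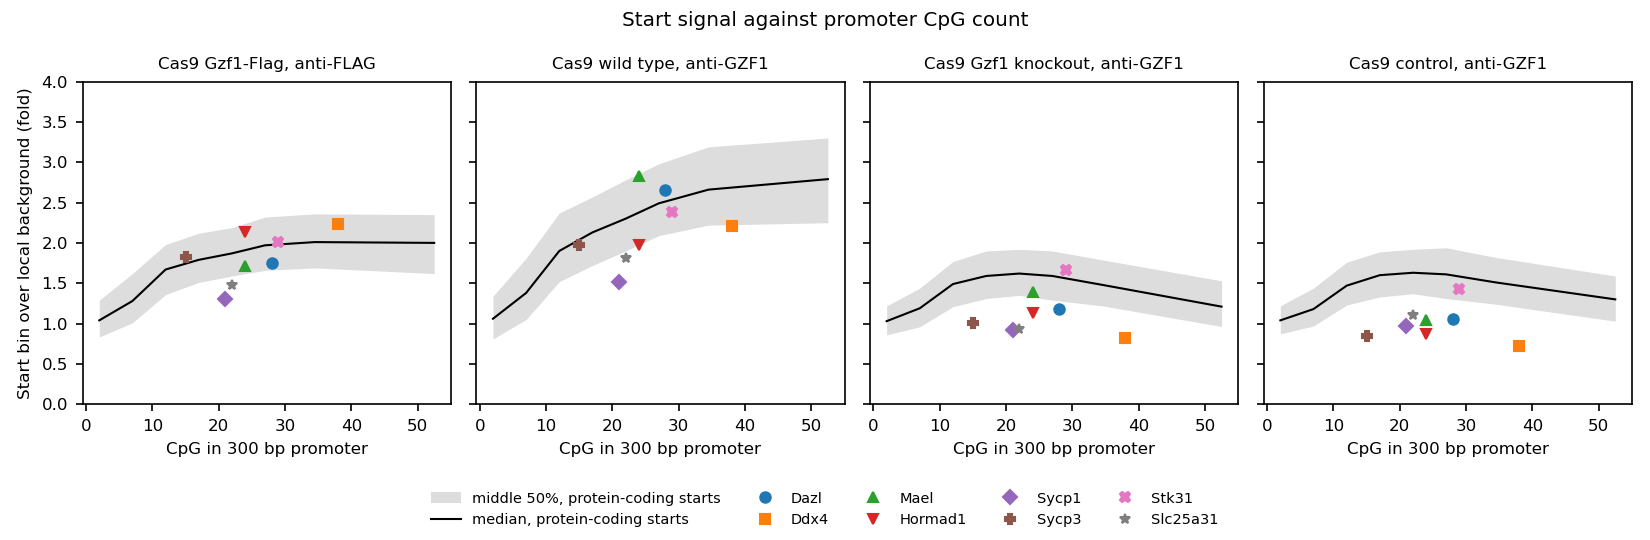
Fold of the start bin over local background (y axis) against the number of CpG in the promoter window (x axis) for the 8 genes, with the median and middle 50% of protein-coding starts as line and band, in 4 libraries. Most genes lie in or near the band in Cas9 anti-FLAG and Cas9 wild type, and most lie below it in the knockout and control, where Ddx4, with 38 CpG, is at 0.821 and 0.718.

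The knockout was compared with the control to ask whether anti-GZF1 signal over these genes is lower without Gzf1. No start bin had a ratio of scaled reads with its interval wholly below 1 (0 of 8, against 7.36% of all gene starts), and Mael alone was above, at 1.79 (1.15 to 2.83), where 6.58% of all starts were. The densities at the Mael start were 1.70 in the knockout and 0.952 in the control. The Mael region was covered more in the knockout at large, by 1.27 times over the surrounding 1 Mb, and relative to that the start ratio was 1.41 (0.905 to 2.23). Relative to 1 Mb, 0 of 8 starts were below 1 and 0 above, against 5.27% and 4.74% of all starts. The median ratio of the 8 starts was then 1.10, with single ratios from 0.809 (Slc25a31) to 1.41 (Mael), and the all-gene median was 0.994. Among CpG-rich starts 4.59% were below and 4.46% above. With the neighbouring bins added, Mael at 1.62 (1.24 to 2.14) and Sycp3 at 1.47 (1.14 to 1.88) were above 1, or 2 of 8 against 10.4% of all starts, and 0 were below, against 10.5%. Relative to 1 Mb, Sycp3 alone was above 1, at 1.46 (1.14 to 1.88), or 1 of 8 against 6.06%, and 0 were below, against 6.07%. At 29.4 to 88.65 reads a bin, intervals such as 0.531 to 1.52 at Dazl mean that changes within that range were not detectable at this depth. The control starts also stood little above their surroundings, with 0 of 8 called and a median fold of 1.01. With so little start signal to lose in the control, this comparison cannot decide whether signal at the starts is lower without Gzf1.

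Over gene windows, which hold more reads, Stk31 had a ratio of 0.816 (0.782 to 0.851) from 3792.30 reads in the knockout and 5047.60 in the control, and Slc25a31 a ratio of 0.825 (0.763 to 0.893) from 1112.20 and 1463.40 reads. These were the 2 of 8 with an interval wholly below 1, against 22.8% of all gene windows. Mael was the 1 above, at 1.31 (1.22 to 1.40), against 20.6%. Relative to the surrounding 1 Mb, Stk31 was at 0.942 (0.903 to 0.983) and Slc25a31 at 0.874 (0.807 to 0.945), so 2 of 8 stayed below 1, against 8.5% of all windows, and 0 of 8 stayed above, against 9.07%. Mael was then at 1.03 (0.964 to 1.10). The other 5 windows had ratios of 0.929 (Dazl) to 1.03 (Sycp3) before this scaling. Chromosome 6, which carries Stk31, had a median density of 1.06 in the knockout and 1.25 in the control, and how far such differences in chromosome coverage enter the gene ratios was not tested.

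Cas9 wild type and the Cas9 control, taken with the same antibody, differed at most of these starts. The ratio of wild type to control in the start bin had its interval wholly above 1 at 7 of 8, all but Sycp1, against 48.0% of all gene starts, and wholly below 1 at 0 of 8, against 7.48%. Dazl had 3.47 (2.30 to 5.32), with densities of 3.40 in wild type and 0.979 in the control, and Ddx4 had 3.24 (2.04 to 5.05), with 2.77 in wild type and 0.856 in the control. Sycp3 had 2.66 (1.71 to 4.22), Mael 2.49 (1.60 to 3.95) and Hormad1 2.07 (1.39 to 3.05). Slc25a31 and Stk31 had smaller ratios of 1.68 (1.12 to 2.5) and 1.48 (1.08 to 1.99), and Sycp1 had 1.24 (0.811 to 1.87). Relative to the surrounding 1 Mb the same count was 7 of 8, against 36.4% of all starts and 71.0% of CpG-rich ones, with 0 of 8 below 1, against 5.84% and 0.959%. The median ratio was then 2.25 for the 8, 1.28 for all starts and 1.69 for the CpG-rich class. The whole gene windows did not follow the starts. There 2 of 8 (Dazl and Sycp3) were above 1, against 60.6% of all gene windows, and 5 were below, against 21.5%. Relative to 1 Mb these became 1 above (40.8%) and 5 below (18.3%). Antibody signal, the contrast of promoters to surroundings and chromosome coverage all differ between these 2 libraries and cannot be told apart here.

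**Figure D5:**
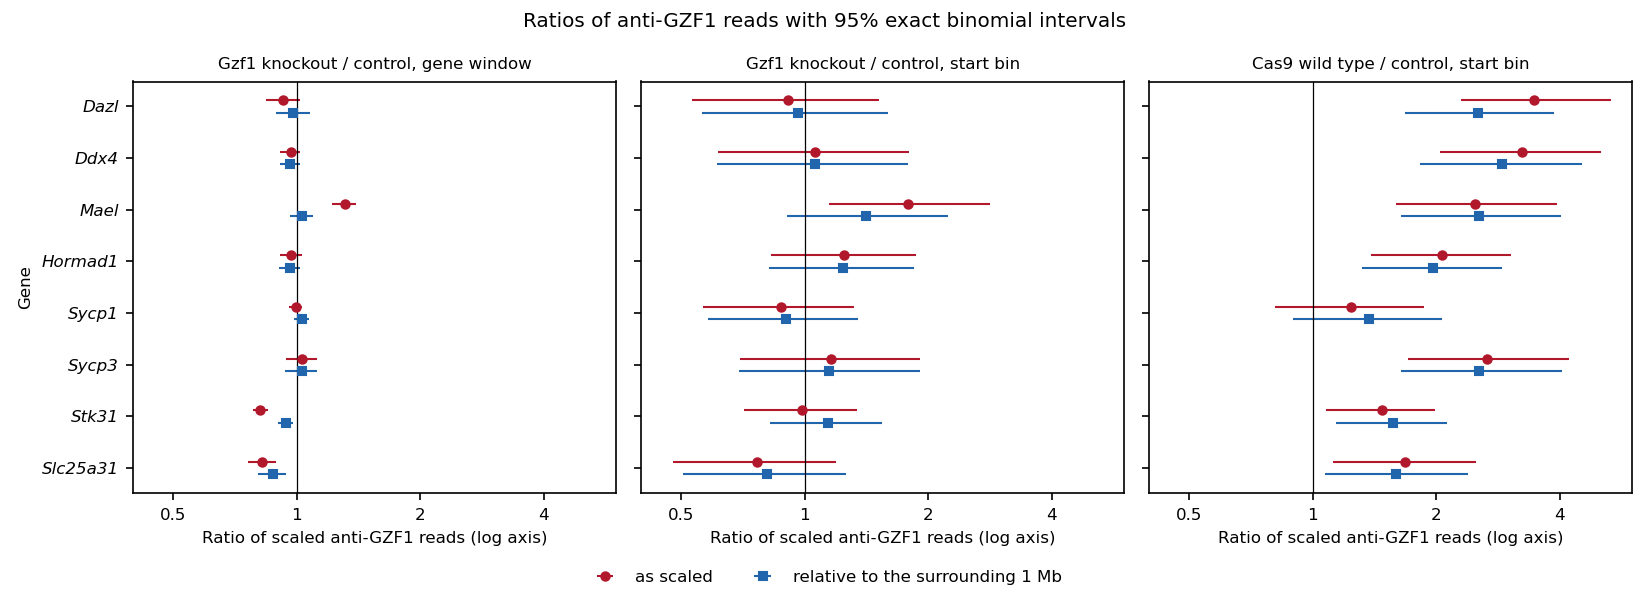
Ratios of scaled anti-GZF1 reads (x axis, log scale) for each gene (rows) with 95% exact binomial intervals, as scaled and relative to the surrounding 1 Mb. In the knockout over control panels the intervals of most genes cross 1, and in the wild type over control panel Dazl (3.47) and Ddx4 (3.24) lie farthest to the right.

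RGM was set against Cas9 with each antibody. With anti-FLAG the ratio of RGM to Cas9 was above 1 at 1 of 8 starts, Sycp3 at 1.60 (1.13 to 2.32), against 24.7% of all starts. Relative to the surrounding 1 Mb it was above 1 at 2 of 8, Dazl at 1.5 (1.06 to 2.13) and Sycp3 at 1.46 (1.03 to 2.11), against 17.5% of all starts and 30.3% of CpG-rich ones. With wild-type anti-GZF1 it was above 1 at 3 of 8, Dazl at 1.96 (1.36 to 2.78), Hormad1 at 1.69 (1.11 to 2.54) and Ddx4 at 1.54 (1.01 to 2.37), against 27% of all starts. Relative to 1 Mb, Dazl alone was above 1, at 2.36 (1.65 to 3.35), or 1 of 8 against 24.1% of all starts and 46.7% of CpG-rich ones. With either antibody 0 of 8 starts were below 1, against 5% of all starts for anti-FLAG and 3.77% for anti-GZF1. Relative to 1 Mb the shares below 1 were 4.17% and 3.42% of all starts and 1.49% and 0.601% of CpG-rich ones, again with 0 of the 8. With the neighbouring bins added, 4 of 8 were above 1 with anti-FLAG (Ddx4, Hormad1, Sycp1 and Sycp3), against 30.9% of all starts, and 4 of 8 with anti-GZF1 (Dazl, Hormad1, Sycp3 and Stk31), against 29.5%. Relative to 1 Mb these were 2 of 8 with anti-FLAG (Ddx4 and Slc25a31), against 19.9%, and 2 of 8 with anti-GZF1 (Dazl and Sycp3), against 25.5%. RGM wild type was the shallowest immunoprecipitated library, with 16.0 to 57.25 reads in these bins.

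H3K27ac was also raised at the starts, with 7 of 8 called, all but Sycp3, against 47.9% of all starts and 88.2% of CpG-rich ones. The median fold was 2.33 for the 8, 1.45 for all starts and 2.25 for the class. Stk31 had the largest fold, 3.16 (2.51 to 3.93) from 80.95 reads, then Dazl with 2.92 (2.20 to 3.79) and Slc25a31 with 2.75 (2.13 to 3.49). Mael had 2.47 (1.78 to 3.33) from 42 reads and Hormad1 2.20 (1.61 to 2.94) from 46.25. Ddx4 had 2.06 (1.47 to 2.81), Sycp1 1.65 (1.15 to 2.30) and Sycp3, the lowest, 1.41 (0.916 to 2.07) from 25.65 reads. The order of the genes differed from that of the anti-FLAG libraries, where Slc25a31 was among the lowest and Stk31 was not the highest. At 6 highly active promoters, whose genes include Gapdh, Rplp0 and Ppia, the H3K27ac fold had a median of 1.97, so this library did not separate active promoters from these 8 starts. On the log2 scale over input, H3K27ac was at 0.08 at Dazl and -0.34 at Ddx4, so these starts showed little or no rise over input. The other genes ran from 0.25 (Sycp3) to 2.65 (Mael, with 0.0 input reads).

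Other germline genes were read the same way, 28 of 36 listed having an annotated autosomal start in the table used. Of these, 17 were called with anti-FLAG in Cas9 and 23 in RGM, against 42.5% and 49.4% of all gene starts. With anti-GZF1, 18 and 24 were called in Cas9 and RGM wild type, against 50% and 59.4%. The knockout called 8 of 28 (against 27.7% of all starts) and the control 6 of 28 (against 28.1%). Boll, a relative of Dazl, was highest by the lower of its anti-FLAG folds, with 2.32 in Cas9 and 4.41 in RGM. It had 3.01 in Cas9 wild type and 13.0 in RGM wild type, above Dazl, against 1.25 in the knockout and 1.15 in the control. The input had 3.52 at the Boll start, from 19.35 reads, above both Cas9 GZF1 libraries. Next came Meioc, which supports entry into meiosis (2.25 and 2.48), Syce1, a synaptonemal complex gene (2.27 and 2.22), and Asz1, a piRNA pathway gene (2.17 and 2.56). Mei1, a meiotic recombination gene, was lowest at 0.870 and 0.586. Among the 17 of these genes with at least 15 CpG, 13 and 17 were called with anti-FLAG in Cas9 and RGM (82.5% and 92.1% of the CpG-rich class). In the wild types these were 14 and 17 (93.0% and 96.6%), and in the knockout and control 6 and 5 (53.4% and 55.8%). The combination of all 4 GZF1 libraries with neither knockout nor control, chosen after the values of the 8 were seen, held for 10 of 28. Its share was 9.59% of all gene starts and 20.8% of the CpG-rich class.

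Of the factors known to silence such genes, 16 of 18 listed were matched. Of these, 13 and 14 were called with anti-FLAG in Cas9 and RGM, against 42.5% and 49.4% of all gene starts. In the wild types 16 and 15 were called, against 50% and 59.4%. The knockout called 5 of 16 (against 27.7% of all starts) and the control 8 of 16 (against 28.1%). The highest were the histone methyltransferase gene Ehmt1 (2.48 and 3.31 with anti-FLAG in Cas9 and RGM), the deacetylase gene Hdac2 (2.44 and 4.52), Max (2.38 and 2.46) and Uhrf1, which recruits the maintenance methyltransferase (2.41 and 2.25). Dnmt1 was lowest, at 1.16 and 1.40. Of 6 matched active promoters of 10 listed, 6 and 6 were called with anti-FLAG, 5 and 6 in the wild types, 4 in the knockout and 5 in the control, against the same shares of all starts. Gapdh led with 6.57 and 4.38, then Rplp0 (2.30 and 2.21), Ppia (1.93 and 2.31) and Eef1a1 (1.62 and 1.84), and Ldha was lowest at 1.57 and 1.84. Among the 14 silencing factors with at least 15 CpG, 12 and 13 were called with anti-FLAG (82.5% and 92.1% of the CpG-rich class). In the wild types these were 14 and 14 (93.0% and 96.6%), and in the knockout and control 4 and 7 (53.4% and 55.8%). The combination held for 5 of 16 silencing factors and 0 of 6 active promoters, 5 of which were called in all 4 GZF1 libraries. Its share was 9.59% of all gene starts and 20.8% of the CpG-rich class. It held for 0 of 7 embryonic stem cell markers and 1 of 4 fibroblast feeder markers (Twist2).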

How the data were processed

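The submitters' processing notes name cutadapt, Bowtie2 2.5.4, SAMtools, deepTools and the mm10 build. The deposited values are an estimated count of reads per 1 kb bin, made by the authors and not depth-scaled. Duplicate and mapping-quality filters are not given in the sources used here. Values were divided by the library's mean of 2462755 autosomal bins. A start was called at 1.5 times the median of 10 bins on each side. Log2 values over input used a pseudocount of 0.5 autosomal means and the single Cas9 input, also for RGM. Intervals were exact Poisson for counts, treating the background as fixed, and exact binomial (Clopper-Pearson) on rounded counts for ratios, for bins with at least 20 reads in both libraries together. Starts and strands came from RefSeq promoter entries (GRCm38.p6), the first listed per gene. Every gene of the 8 was named, and of the other germline genes, silencing factors and active promoters the 4 with the highest and the 1 with the lowest lower anti-FLAG fold. Cell type markers are given as counts. The procedure was tested on simulated data. Members and lists were chosen with earlier results of these data known. The planned limma comparison of anti-FLAG with and without Gzf1-Flag was not run because the libraries it needs were not analysed here. Computation used scipy 1.17.1, pandas 2.3.3 and numpy 2.4.6 under Python 3.11.15.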

Additional observations from a re-analysis of the deposited data

How the results depend on the processing

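Of 117 values recomputed under alternatives, 107 stayed within the limit set for a change (1.5 times for counts, the counting interval for log2 medians) and 10 moved. Of 70 recomputed medians over input, all of them log2 values, 7 changed sign within that interval. Scaling to the median bin moved the median over all gene windows by -0.18 to -0.04, and the window medians of the 8 became -0.10 in RGM anti-FLAG (0.03 as reported), -0.08 in Cas9 wild type (0.02), -0.11 for H3K27ac (0.03) and -0.08 in the control (0.09). The window median was 0.02 in Cas9 anti-FLAG with 10 kb on each side (-0.03) and 0.02 in RGM wild type with 2 kb (-0.04). The start median of the knockout was 0.16 with neighbouring bins (-0.09). With a call at 2 times local background, 3 of 8 starts were called in Cas9 anti-FLAG, 4 in Cas9 wild type and 0 in the knockout, against 19.1%, 32.8% and 7.21% of all gene starts. With the mean of the start bin and its neighbours, 3 were called in Cas9 anti-FLAG, against 25.4% of all gene starts. Among the 5 genes whose start bin has an input of 0.25 to 3 times its mean, 3 were called in Cas9 anti-FLAG, 4 in RGM anti-FLAG, 5 in Cas9 wild type, 5 in RGM wild type and 4 for H3K27ac, where fewer genes enter by construction. Of all such starts 34.9%, 41.7%, 42.4%, 53.0% and 40.5% were called in that order. With reads summed over the start bin and its neighbours, 0 of 8 knockout over control ratios lay wholly below 1, against 2 gene windows. The cause of the other changes was not tested. No paired analysis was possible because each group has 1 library and no result comes from a test. With 1 library a group, none was left out. The input, at 3.93 reads a bin, and RGM wild type, at 8.61, limit what single bins can show.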
